A study of Mus musculus with 235 samples.

Results

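The libraries described here came from tissue punched at the site labelled PVN in vehicle-treated mice, and they numbered 14 of the 235 libraries of the series. They were chosen from the sample titles as every PVN library of an animal given saline. PVN is the common abbreviation for the paraventricular nucleus of the hypothalamus. Each was set against the vehicle libraries of the 7 other punched regions, labelled AMY, CER, PFC, dCA1, dDG, vCA1 and vDG, with 15 libraries each and 14 for vCA1. The labels do not spell these names out. All animals were male C57Bl/6 mice aged 3 months. The 15 vehicle animals received 0.9% saline into the peritoneum and tissue was taken after 4 h. A further 15 animals were given the synthetic glucocorticoid dexamethasone (10 mg/kg) by the same route for the same time, and their 15 PVN libraries served as a repeat in other animals. One vehicle animal (replicate 2) had no PVN library, and 13 animals had a library from each of the 8 regions.

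The paraventricular nucleus lies beside the upper part of the cerebral ventricle that runs through the hypothalamus. Its large neurons send oxytocin and vasopressin to the posterior pituitary, and its smaller neurons release corticotropin-releasing hormone and thyrotropin-releasing hormone, which drive the adrenal and thyroid axes. The thalamus lies above it, and the zona incerta and the lateral hypothalamus lie to its side. In a punch, more cells of a type and more RNA per cell cannot be told apart.

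PVN vehicle libraries held 361319 to 1277998 counts, with a median of 786619.5, and the vehicle libraries of the other regions held 268538 to 1451422 counts, with a median of 721994. RNA integrity numbers of the PVN libraries were 5.91 ± 0.626 (SD, n = 14). Several libraries of other regions stood apart in genes described below. AMY replicate 1 had 544 CPM (read counts scaled to a common library size) of Avp and 165 CPM of Oxt, and AMY replicate 10 had 151 CPM of Oxt. AMY replicate 4 had 330 CPM of Pmch, and dCA1 replicate 1 had 102 CPM. The 15 libraries labelled CER had 0 counts of Gabra6, a defining gene of cerebellar granule cells, which allows a level of up to 0.292 CPM over the group when 3 counts are taken as the limit. They had 84.2 ± 123 CPM (SD, n = 15) of Tph2, the serotonin-synthesising enzyme of the brain. CER is therefore used here as a label only.

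The scaling of CPM used TMM (trimmed mean of M values) factors. A log2 difference is the PVN level minus the unweighted mean of the 7 other regions, from edgeR's quasi-likelihood test with the animal as a block. Adjusted p-values are Benjamini-Hochberg values over all 10451 genes tested. A gene is called higher or lower at an adjusted p under 0.05, enriched when it is also at least 1 higher on the log2 scale, and depleted when it is at least 1 lower. PVN was higher for 2109 genes (20.2% of those tested) and lower for 2185 (20.9%). Of these, 306 were enriched (2.93%) and 400 depleted (3.83%). The median log2 difference over all genes was 0.0017. PVN was higher than each of the 7 regions separately for 250 genes (2.39%) and lower than each for 149 (1.43%). No gene had every PVN library above, or every PVN library below, all vehicle libraries of the other regions (0% in each direction). Among the 306 enriched genes, 145 (47.4%) were also higher than each region. In all 14 animals, 248 were higher than the mean of the animal's other regions. Over all genes tested, 654 (6.26%) were higher and 733 (7.01%) lower in all 14 animals. An exact sign-flip permutation test used 1 difference per animal, PVN minus the mean of that animal's other regions. It called 2137 genes higher (20.4%) and 2040 lower (19.5%) at an adjusted p under 0.05. Among the other regions, the highest mean was that of CER for 152 enriched genes and that of AMY for 106. For 74 of the 306 that mean was above the PVN mean.

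Of the 4 hormones named above, oxytocin, vasopressin and thyrotropin-releasing hormone had genes far above the other regions, and the gene of corticotropin-releasing hormone was higher by less. Of 9 peptide genes of the nucleus tested, 6 were higher in PVN, 3 of them enriched (Oxt, Avp and Trh), and 3 did not pass the test (Sst, Pdyn and Penk). The list's median log2 difference was 0.96. Oxt encodes oxytocin and Avp vasopressin. The 250 bases before RefSeq's start of each gene are shown because these genes are neighbours and, as described further on, varied together between punches. On mm10, Oxt lies on chromosome 2 from 130576173 to 130577054 on the plus strand and Avp from 130580620 to 130582554 on the minus strand, tail to tail with 3565 bases between them. Sequences are from RefSeq on GRCm38.p6, 5′ to 3′ on the gene's strand, at chr2:130575919-130576168 for Oxt and chr2:130582589-130582838 for Avp. RefSeq's starts differ by some bases from the gene starts given above, so the windows do not end exactly at those. Capitals mark every match, on either strand, to 3 motifs. These are AGGTCA, the core of nuclear receptor binding sites, which reads TGACCT on the other strand, the E-box CACGTG, and the promoter element known as the TATA box, spelled TATAAA.
Oxt: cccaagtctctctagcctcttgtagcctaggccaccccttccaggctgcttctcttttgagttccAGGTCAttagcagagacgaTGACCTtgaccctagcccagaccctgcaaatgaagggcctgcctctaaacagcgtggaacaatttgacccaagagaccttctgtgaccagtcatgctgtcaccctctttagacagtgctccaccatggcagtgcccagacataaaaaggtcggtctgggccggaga
Avp: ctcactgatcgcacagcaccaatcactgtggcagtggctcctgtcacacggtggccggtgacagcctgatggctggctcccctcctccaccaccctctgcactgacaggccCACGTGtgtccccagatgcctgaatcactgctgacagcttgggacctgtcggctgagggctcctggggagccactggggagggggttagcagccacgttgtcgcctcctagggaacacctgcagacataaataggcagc
The Oxt window held 2 matches to AGGTCA, 1 on each strand, and the Avp window 1 match to CACGTG. No matches overlapped. Among 32851 windows of this length before RefSeq gene starts, 14% held AGGTCA, 6.02% held CACGTG and 12.4% held TATAAA. A match describes letters only.

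Oxt ranged over the PVN libraries from 5.04 to 1481 CPM with a median of 119.7 CPM, against a median of 1.79 CPM in the other regions. Its log2 difference was 5.99 (SE 0.212, adjusted p 1.04e-48 by edgeR). In all 14 animals Oxt in PVN was above the mean of the animal's other regions, though not above each of them. In replicate 1, AMY had 165 CPM and PVN 96.4 CPM. The lowest PVN punches overlapped other regions widely, and 5 of 14 lay above the highest library of any other region, AMY replicate 1. Avp ranged from 3.28 to 474 CPM with a median of 35.4 CPM, against 1.20 CPM elsewhere, a log2 difference of 5.18 (SE 0.291, adjusted p 9.88e-32 by edgeR). No PVN library exceeded AMY replicate 1 in Avp. Without that library the difference was 4.91, and the number of genes higher than each region was 242.

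Trh, which encodes thyrotropin-releasing hormone (chromosome 6, 92242061 to 92244650, minus strand), ranged from 6.37 to 128 CPM with a median of 47.5 CPM. The other regions had a median of 1.65 CPM, and the log2 difference was 4.63 (SE 0.187, adjusted p 9.51e-44 by edgeR). In 10 of 14 PVN libraries Trh was above all libraries of other regions. Crh, which encodes corticotropin-releasing hormone (chromosome 3, 19693401 to 19695396, minus strand), stood closer to the rest. It ranged from 2.55 to 41.1 CPM with a median of 18.6 CPM, against 6.97 CPM elsewhere, a log2 difference of 0.99 (SE 0.216, adjusted p 7.04e-05 by edgeR). AMY had more Crh than PVN, at 36.1 ± 23.2 CPM (SD, n = 15), and the pairwise log2 difference was -0.93. Against the mean of 4 areas, with the hippocampal subfields merged into 1, the Crh difference was 0.49 and did not pass the test. Adcyap1, which encodes the peptide PACAP, and Nts, which encodes neurotensin, were higher by 0.96 and 0.94 on the log2 scale against the mean of 7. PFC had more Adcyap1 than PVN (pairwise log2 difference -0.69, adjusted p 0.0108 by edgeR). AMY had more Nts (-0.93, adjusted p 0.0295 by edgeR), and the exact sign-flip permutation test by animal did not call Nts (adjusted p 0.0601). Sst (somatostatin), Pdyn (prodynorphin) and Penk (proenkephalin) had log2 differences of -0.32, 0.38 and 0.35 and did not pass. In the dexamethasone libraries Penk passed (log2 difference 0.49, adjusted p 0.00152 by edgeR), making 7 of the 9 peptide genes higher there.

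**Figure D1:**
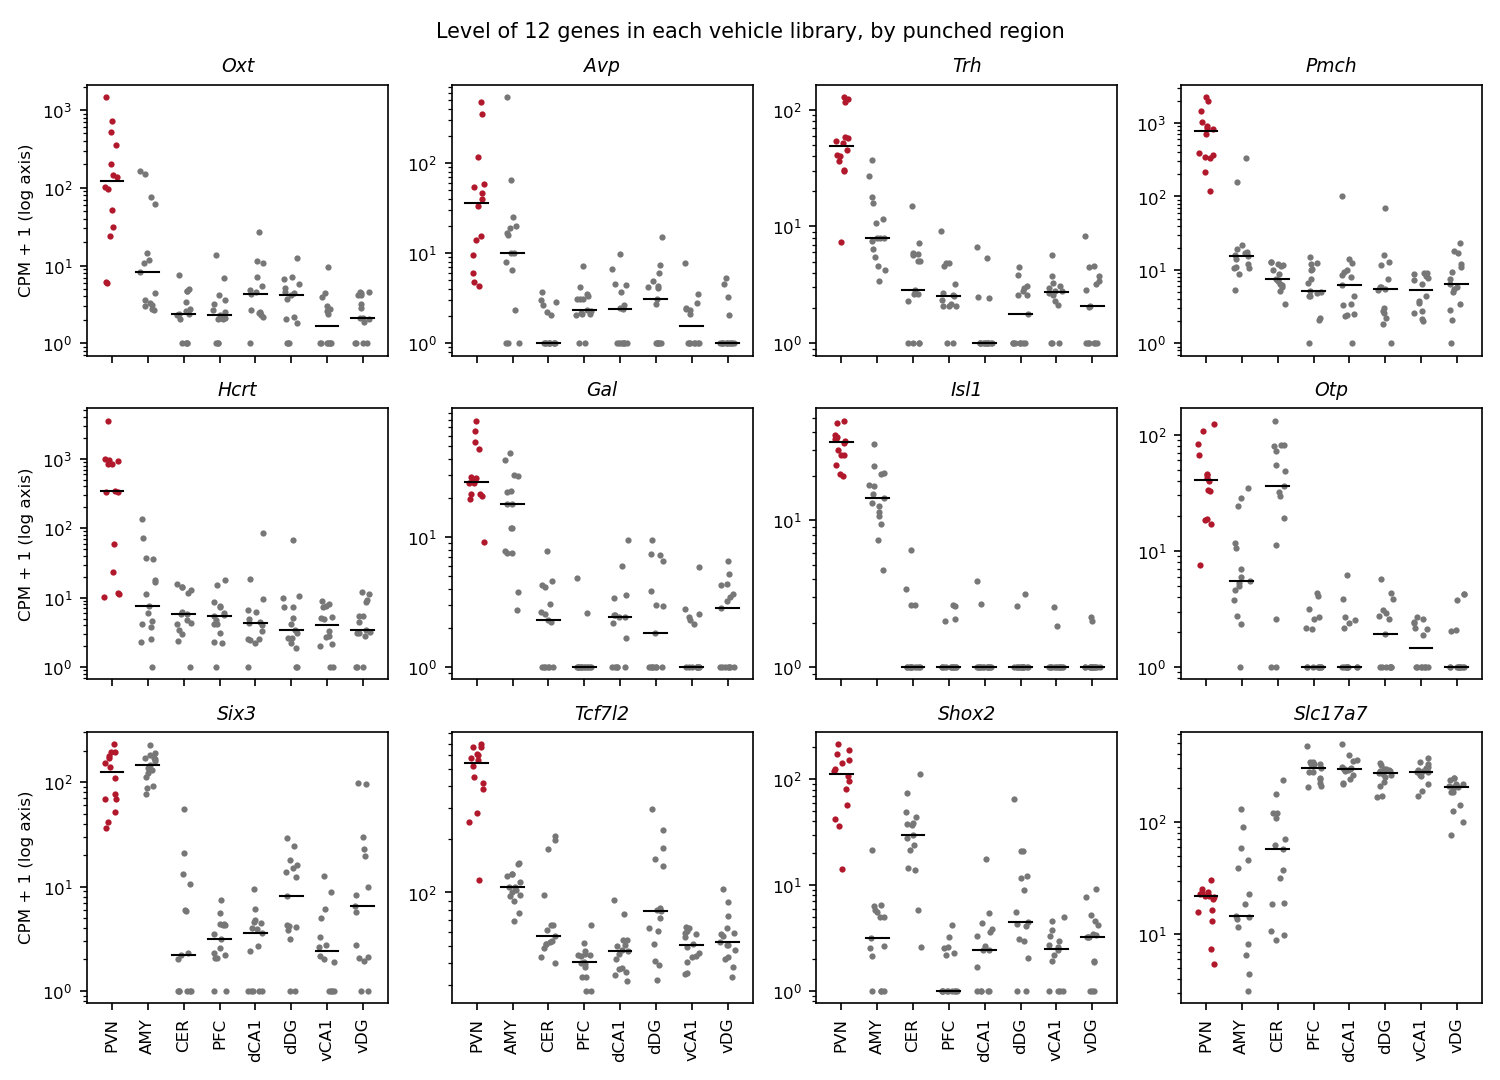
Level of 12 genes in each vehicle library, as CPM + 1 on a log axis, by punched region. Each point is 1 library (PVN in red), and black lines are medians. Oxt, Avp and Hcrt spread widely in PVN, from 5.04 to 1481 CPM for Oxt, while Isl1 lies between 19.1 and 46.8 CPM.

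Transcription factors that specify these neurons were partly below the reach of the depth. Otp, a homeobox gene needed for the neuroendocrine neurons of the nucleus, ranged from 6.56 to 121 CPM with a median of 39.7 CPM, against 1.16 CPM elsewhere. Its log2 difference was 4.11 (SE 0.255, adjusted p 2.03e-28 by edgeR). Otp in CER was 44.4 ± 37.9 CPM (SD, n = 15), and the pairwise difference between PVN and CER did not pass (log2 difference -0.11, adjusted p 0.817 by edgeR). Sim1, another factor of the same lineage, was too low for the test. It had 150 counts in 13 of 14 PVN libraries against 27 counts in all vehicle libraries of the other regions. Pou3f2, which acts in the same lineage, was higher by 0.50 on the log2 scale, and Arnt2 did not pass (-0.03). Sim2 and Uncx were not tested, with 21 and 57 counts over the PVN libraries.

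The furthest of all genes above the other regions were peptides of the lateral hypothalamus. All 3 tested genes of that list were enriched and higher than each region, and the fourth, Qrfp, had 5 counts in PVN. Pmch encodes melanin-concentrating hormone and Hcrt the orexins, which promote feeding and wakefulness. The 250 bases before their RefSeq starts are shown, as for Oxt, at chr10:88090822-88091071 on the plus strand for Pmch and chr11:100762932-100763181 on the minus strand for Hcrt, with the same capitals.
Pmch: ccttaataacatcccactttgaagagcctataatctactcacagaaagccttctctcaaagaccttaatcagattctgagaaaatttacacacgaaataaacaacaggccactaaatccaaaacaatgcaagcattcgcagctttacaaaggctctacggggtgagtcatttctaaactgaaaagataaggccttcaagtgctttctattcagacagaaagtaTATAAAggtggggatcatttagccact
Hcrt: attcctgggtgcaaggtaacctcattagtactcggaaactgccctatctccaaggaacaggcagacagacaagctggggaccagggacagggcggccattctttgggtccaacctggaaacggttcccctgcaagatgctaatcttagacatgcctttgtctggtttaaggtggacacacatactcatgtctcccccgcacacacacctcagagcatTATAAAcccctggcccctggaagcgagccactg
Each window held 1 match, to TATAAA. Of the 306 enriched genes, 241 had a window. AGGTCA was in 22 of them, CACGTG in 21 and TATAAA in 25. Here a gene counts if any of its windows matches. The shares given above are per window, so they are no direct background for these counts.

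Pmch (chromosome 10, 88091072 to 88092375, plus strand) ranged from 116 to 2279.6 CPM with a median of 778 CPM, against 6.37 CPM in the other regions. Its log2 difference was 6.70 (SE 0.173, adjusted p 6.21e-62 by edgeR). In 12 of 14 PVN libraries Pmch lay above every other library. Pmch overlaps Parpbp on the opposite strand, and whether counting used strand is not given in the sources used here. Hcrt (chromosome 11, 100761069 to 100762931, minus strand) ranged from 9.34 to 3545 CPM with a median of 339 CPM, against 3.64 CPM, a log2 difference of 6.26 (SE 0.229, adjusted p 1.48e-47 by edgeR). Its PVN libraries formed separate clusters: 9 had 331 to 3545 CPM, above every other library, and 5 had 9.34 to 58.0 CPM. Gal, which encodes galanin, ranged from 8.12 to 77.6 CPM with a log2 difference of 3.99 (SE 0.224, adjusted p 9.43e-32 by edgeR). AMY had the next highest Gal, at 17.4 ± 12.7 CPM (SD, n = 15), within the range of the PVN libraries.

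Genes of other hypothalamic nuclei were uneven. Cartpt, which encodes the peptide CART made in arcuate, lateral and paraventricular neurons, ranged from 57.4 to 245 CPM with a median of 83.7 CPM, against 4.14 CPM elsewhere (log2 difference 3.98, SE 0.159, adjusted p 4.56e-44 by edgeR). Of the arcuate feeding peptides, Npy was depleted with a log2 difference of -1.73. Agrp and Pomc were too low to test: Agrp had 2 counts over the 14 libraries, and Pomc had 44, with a mean of 3.87 CPM against 2.30 CPM elsewhere. Tac2, which encodes neurokinin B, was enriched by 1.04, with AMY higher still. Ghrh, which encodes growth hormone-releasing hormone, was not tested, with 109 counts, found in every PVN library. Nr5a1, the defining factor of the ventromedial nucleus, had 1 count in the 14 libraries, and Fezf1 64 counts. Of the clock nucleus genes, Vip was depleted (log2 difference -2.91), while Lhx1 and Rgs16 were enriched by 2.49 and 2.74. CER had 17.4 CPM of Lhx1 on average against 14.5 CPM in PVN. Rgs16 overlaps Gm28513. Rax, the defining gene of tanycytes of the ventricle floor, had 2 counts. Of 5 tested genes of a tanycyte list, 1 was higher and 3 were depleted, with a median log2 difference of -1.35. Scn7a of that list was too low to test but had counts in all 14 PVN libraries, with 5.58 CPM against 3.52 CPM elsewhere.

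Genes with broad hypothalamic expression were higher wherever they could be tested. All 10 tested genes of that list were higher, 9 enriched and 7 higher than each region, with a median log2 difference of 2.57. Irs4, an insulin receptor substrate made mainly in the hypothalamus, ranged from 33.4 to 105 CPM with a median of 55.0 CPM, against 1.26 CPM elsewhere (log2 difference 4.48, SE 0.217, adjusted p 5.15e-37 by edgeR). All PVN libraries were above the median of the other regions, and CER replicate 2, at 136 CPM, was above all of them. Baiap3, which acts in dense-core vesicle traffic, ranged from 96.5 to 225 CPM with a median of 132 CPM (log2 difference 3.68, SE 0.127, adjusted p 1.40e-49 by edgeR). Six3, a forebrain patterning factor, had a log2 difference of 3.97 against the mean, but AMY had 144 ± 42.2 CPM (SD, n = 15) against a PVN median of 123 CPM and their pairwise difference did not pass (log2 difference -0.34, adjusted p 0.354 by edgeR). Gpx3, Ngb, Zcchc12, Resp18, Hap1 and Nkx2-2 were enriched by 3.29, 2.91, 2.22, 2.10, 1.53 and 1.08, and Ahi1 was higher by 0.95. Gabre, Gpr165, Calcr, Nkx2-1, Hmx2 and Hmx3 were too low to test. Nkx2-1 had a mean of 7.03 CPM in PVN and 11.0 CPM in AMY, while Gabre had 7.43 and 4.28 CPM. The filter on low counts can keep a gene for its PVN libraries alone, so tested genes are a selected part of such a list. Irs4 overlaps Gm15295, Baiap3 overlaps Tsr3 and Six3 overlaps Gm28528, so reads of these could not be kept apart if counting ignored strand.

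Imprinted genes, of which only the copy from 1 parent is used and many of which are rich in the hypothalamus, formed a similar group. All 12 were higher, 9 enriched and 7 higher than each region, with a median log2 difference of 1.27. Dlk1, an inhibitor of Notch signalling, ranged from 73.8 to 269 CPM with a median of 149.6 CPM, against 11.2 CPM elsewhere (log2 difference 3.51, SE 0.161, adjusted p 6.63e-39 by edgeR). Magel2 and Ndn, neighbours in the Prader-Willi region, were enriched by 3.33 and 1.14, and Magel2 overlaps Gm32061. Peg3, a zinc finger factor, ranged only from 1021 to 1637 CPM and was enriched by 1.19 (SE 0.061, adjusted p 6.74e-35 by edgeR). Asb4, Peg10, Nnat, Zdbf2 and Impact were enriched by 3.32, 2.29, 1.36, 1.36 and 1.05. Gnas, Plagl1 and Snrpn were higher by less, 0.76, 0.76 and 0.16. Summed over the list, PVN libraries held 4442 to 6526 CPM and the other regions 1555 to 5103 CPM, so the groups overlapped at their edges.

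Genes of the zona incerta and prethalamus were higher in part. Isl1, a homeobox factor of prethalamic and arcuate neurons (chromosome 13, 116298281 to 116309689, minus strand), ranged from 19.1 to 46.8 CPM with a median of 33.3 CPM, against a median of 0 CPM elsewhere. Its log2 difference was 5.52 (SE 0.178, adjusted p 1.53e-52 by edgeR). PVN punches differed little in Isl1, and 8 of 14 lay above the highest other library, an AMY library at 32.2 CPM. Of the 7 tested genes of the list, 5 were higher and 3 enriched, with Dlx2 at 2.04 and Dlx1 at 1.84. Pax6 was higher by 0.73, Meis2 did not pass, and Dlx6os1 was lower by -0.56 on the log2 scale. The sign-flip permutation test by animal and the dexamethasone libraries did not call Dlx6os1 (adjusted p 0.127 and, by edgeR, 0.194). The GABA genes Gad2 and Slc32a1 were enriched by 1.39 and 1.13, and Gad1, which serves GABA synthesis too, did not pass (0.06). AMY had more Slc32a1 than PVN (pairwise log2 difference -0.43, adjusted p 0.00876 by edgeR), and its mean of Gad2 was 309 CPM against 277 CPM, a difference that did not pass. Th, the rate-limiting enzyme of dopamine synthesis, ranged from 10.7 to 54.8 CPM with a median of 32.1 CPM (log2 difference 3.76, SE 0.254, adjusted p 8.40e-26 by edgeR). The fit called Th higher than each region, CER included (pairwise log2 difference 1.03, adjusted p 0.00512 by edgeR). The plain means ran the other way, 33.2 CPM in PVN and 35.8 ± 92.7 CPM (SD, n = 15) in CER, where the median was 6.78 CPM and 1 library had 366 CPM. The monoamine genes Ddc and Slc18a2 were enriched by 1.50 and 2.01, but CER had more of both. The dopamine transporter Slc6a3 and the serotonin enzyme Tph2 had 18 and 20 counts in all PVN libraries.

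**Figure D2:**
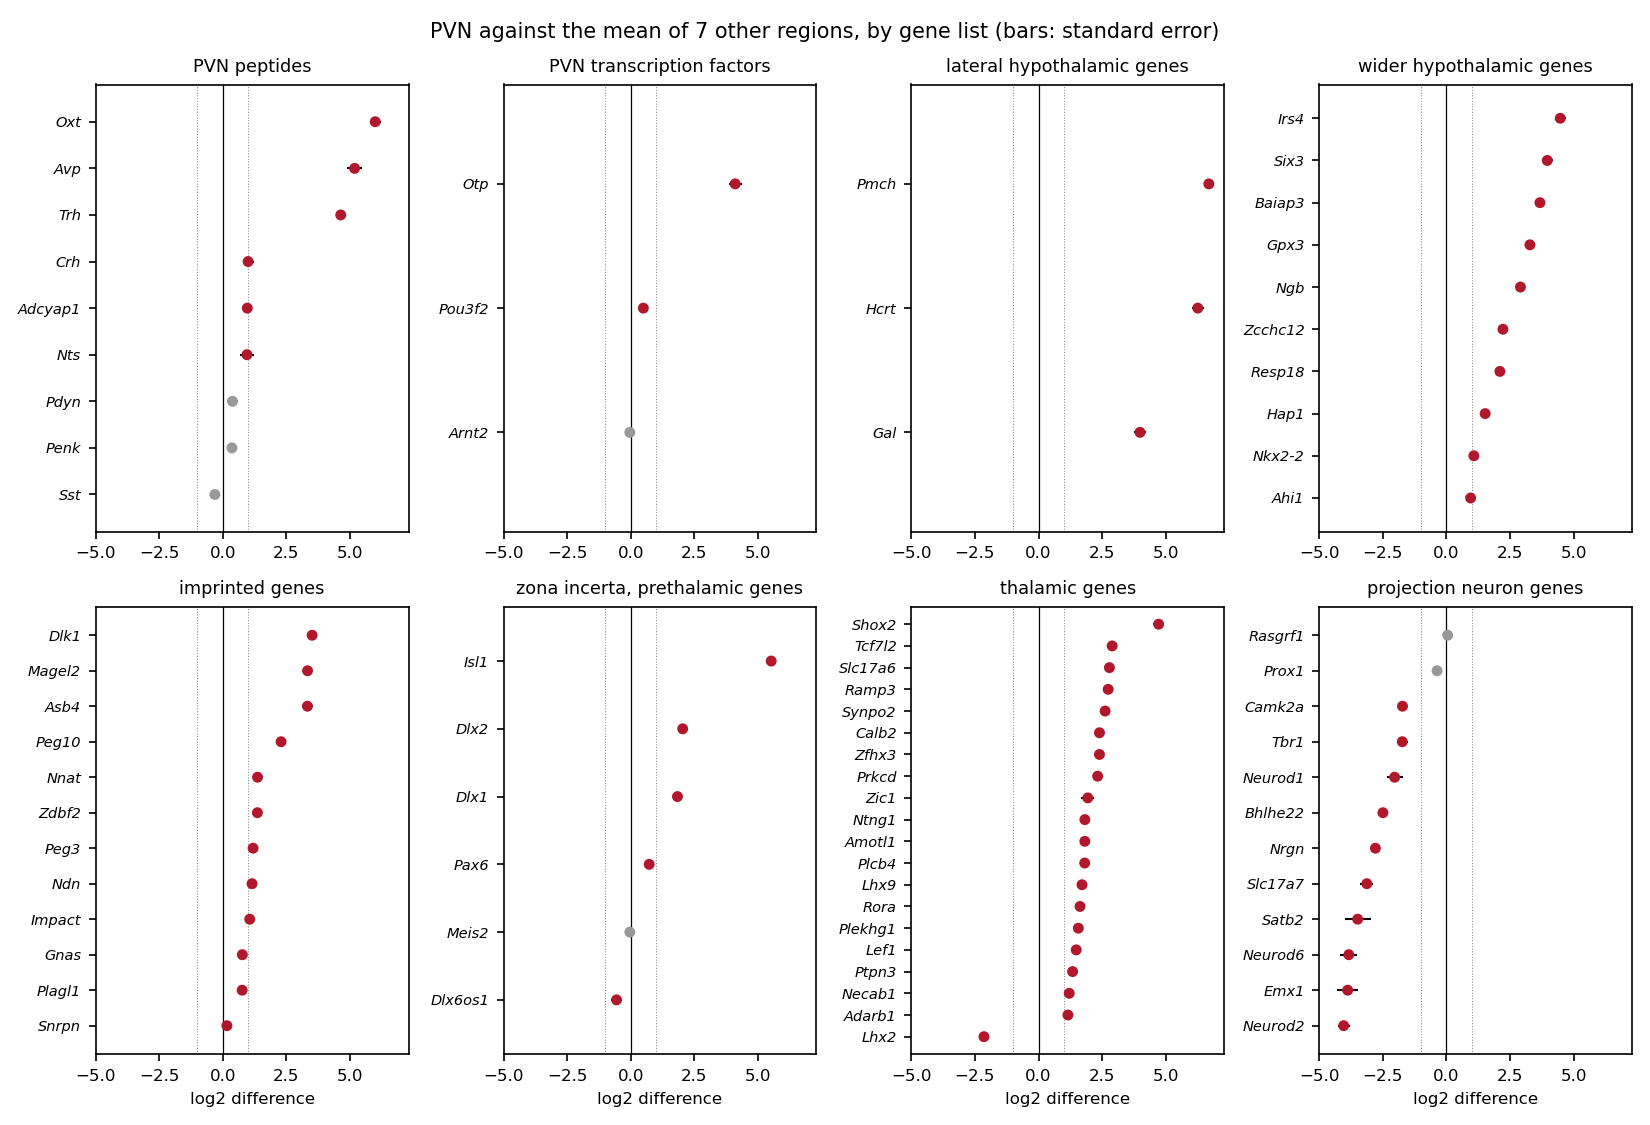
Log2 difference of PVN from the mean of the 7 other regions for the tested genes of 8 lists, with bars of 1 standard error. Red points pass an adjusted p of 0.05, and dotted lines mark 1 and -1. All lateral hypothalamic, wider hypothalamic and imprinted genes tested lie above 0, as do 19 of 20 thalamic genes, while 10 of 12 projection neuron genes lie past -1.

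Genes of the neighbouring thalamus were high in these punches as well. Of 20 tested, 19 were enriched, 17 were higher than each region and 15 were higher in all 14 animals, with a median log2 difference of 1.82 over the 20. Tcf7l2, a Wnt pathway factor that marks the adult thalamus (chromosome 19, 55741810 to 55933654, plus strand), ranged from 117.1 to 691 CPM with a median of 543 CPM, against 52.2 CPM elsewhere. Its log2 difference was 2.89 (SE 0.124, adjusted p 1.84e-41 by edgeR). In 11 of 14 PVN libraries it lay above every other library, and the highest of those was dDG replicate 6 at 298 CPM. Shox2, a homeobox factor of thalamic neurons (chromosome 3, 66971727 to 66981771, minus strand), ranged from 13.2 to 213 CPM with a median of 112 CPM, a log2 difference of 4.72 (SE 0.211, adjusted p 6.28e-40 by edgeR). The PVN punches lay above the median of the other regions, 2.20 CPM, throughout, and 7 of 14 lay above the highest, CER replicate 1 at 111 CPM. Shox2 overlaps Rsrc1 on the opposite strand.

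Prkcd, a kinase of thalamic relay neurons and of a class of amygdala neurons, ranged from 23.4 to 295 CPM with a median of 116.9 CPM (log2 difference 2.32, SE 0.144, adjusted p 1.66e-28 by edgeR). Its 10 highest PVN libraries lay above every library of any other region, AMY included. Slc17a6, the glutamate transporter of thalamic and hypothalamic neurons, was enriched by 2.79 (SE 0.148, adjusted p 1.02e-33 by edgeR). Its PVN levels ran from 120 to 429 CPM, with 7 of 14 libraries above every other. Ramp3, a receptor-modifying protein, was enriched by 2.74, and Synpo2, an actin-binding protein, by 2.62, with 13 of 14 libraries above all others. Zfhx3, Calb2, Zic1, Ntng1, Amotl1, Plcb4, Lhx9, Rora, Plekhg1, Lef1, Ptpn3, Necab1 and Adarb1 had log2 differences from 2.40 (Calb2) down to 1.16 (Adarb1). Lhx9 and Necab1 were not above every region, with dDG and PFC next to PVN. Lhx2 went the other way, with a log2 difference of -2.15, and Lhx2 is also a gene of cortex and hippocampus. Gbx2, a defining thalamic factor, was too low to test, with 160 counts in 13 of 14 PVN libraries, and Tnnt1 had 329 counts. Zic1 overlaps Zic4 and Rora overlaps Gm15511, with the same limit. Of 6 habenular genes, Tac2 was enriched, as given above, and Nwd2 was depleted (-1.33). The other 4 were too low to test: Pou4f1 had 5 counts over the 14 libraries, Gpr151 4, Chrnb4 1 and Chrna3 15, with a Chrna3 mean of 1.39 CPM against 0.40 CPM elsewhere.

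Genes that make and store peptide hormones were mostly higher. Of 12 peptide processing genes, 9 were higher and 2 lower, with a median log2 difference of 0.43. Pcsk1, a convertase that cuts peptide precursors, and Scg2, a granin of dense-core vesicles, were enriched by 1.54 and 1.32. Qpct, which modifies the ends of peptides, was enriched by 1.02. Scg3 and Chgb were lower by -0.29 and -0.55 on the log2 scale, and Pcsk2 did not pass (-0.03). Among 9 hormone and peptide receptors tested, 4 were higher and 3 lower, against 3 higher and 2 lower in the dexamethasone libraries. Irs2, a docking protein of insulin signalling, was not called by the sign-flip permutation test (adjusted p 0.0757) or in the dexamethasone libraries (adjusted p 0.957 by edgeR), where the progesterone receptor gene Pgr and the neuropeptide Y receptor gene Npy5r also did not pass (adjusted p 0.528 and 0.0509 by edgeR). Nr3c1, the glucocorticoid receptor, did not pass, with 73.1 to 119 CPM in PVN and a log2 difference of 0.11 (SE 0.066, adjusted p 0.201 by edgeR). In the dexamethasone libraries Nr3c1 passed (adjusted p 0.0041 by edgeR). Nr3c2, the mineralocorticoid receptor, was depleted with a log2 difference of -1.55 (SE 0.156, adjusted p 1.62e-15 by edgeR). Its PVN levels ran from 0 to 21.1 CPM around a median of 11.2 CPM, against a median of 30.3 CPM elsewhere. Prlr, the prolactin receptor, was enriched by 1.81, with a higher mean in dDG (51.9 CPM against 41.7 CPM) whose difference from PVN did not pass. Mc4r, Crhr1, Oxtr and Lepr, receptors known in the nucleus, were too low to test, with 44, 20, 41 and 23 counts over the PVN libraries.

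The depleted genes were led by those of cortical and hippocampal projection neurons. Of 12 on that list, 10 were lower, all 10 depleted, with a median log2 difference of -2.64, and Prox1 and Rasgrf1 did not pass. Summed over the list, the PVN median was 1509 CPM, below AMY (2471 CPM) but above CER (1249 CPM). The medians of PFC and the hippocampal subfields ran from 5863 to 11388 CPM. Slc17a7, the glutamate transporter of cortical and hippocampal neurons, ranged from 4.39 to 29.4 CPM with a median of 20.8 CPM, against 221 CPM elsewhere (log2 difference -3.13, SE 0.262, adjusted p 7.18e-20 by edgeR). It was lower in PVN in all 14 animals, though not lower than AMY by the pairwise test, where the median was 13.6 CPM. Neurod2, a neuronal differentiation factor, had the lowest log2 difference of all named genes, -4.04 (SE 0.236, adjusted p 2.09e-30 by edgeR), with at most 11.7 CPM in PVN. Emx1 and Neurod6 followed on the list at -3.88 and -3.84. Outside that list, the potassium channel gene Kcnh3 had -3.84 and the dendritic protein gene Ddn -3.71. The thyroid hormone-binding protein gene Crym, a member of the tanycyte list, had -3.82. Itpka, Myoc, Bcl11b and Car12 ran from -3.66 to -3.22. On the high side, the GABA receptor subunit gene Gabrq and the peptidase gene Ecel1 lay outside the lists at 4.18 and 3.83. For Ecel1 the difference between PVN and AMY did not pass (log2 difference 0.21, adjusted p 0.412 by edgeR).

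Glial lists moved gene by gene. No oligodendrocyte gene of 10 and no precursor gene of 5 passed the test against the mean of the 7 regions. At an unadjusted p under 0.05, 0 of the oligodendrocyte and 1 of the precursor genes (Olig1) did by edgeR. DESeq2 called 0 of either list, and limma on 1 difference per animal called 3 and 1. The other regions lay on both sides of PVN. Summed over the oligodendrocyte list, the median was 5820 CPM in PVN, 2258 CPM in PFC and 15582 CPM in CER. For the precursor list it was 288 CPM in PVN, 180 CPM in dCA1 and 386 CPM in CER. Mbp ranged from 1230.2 to 2436 CPM in PVN with a log2 difference of 0.01 (SE 0.140, adjusted p 0.956 by edgeR). Of 10 astrocyte genes, 4 were higher and 2 lower, against 7 higher and 3 lower in the dexamethasone libraries, where Aldh1l1, Slc1a3 and Aldoc also passed as higher and Aqp4 as lower. Agt, angiotensinogen, ranged from 94.8 to 209 CPM with a median of 146 CPM against 17.1 CPM elsewhere (log2 difference 2.87, SE 0.129, adjusted p 9.82e-40 by edgeR). Every PVN library exceeded the median of the other regions in Agt, and 6 exceeded every library of the other regions. Itih3 and the GABA transporter gene Slc6a11 were enriched by 2.72 and 1.68 and Gja1 was higher by 0.23, while Gfap was depleted (-1.23) and Slc1a2 lower (-0.78). All 7 microglial genes were lower, by -0.32 to -0.68 on the log2 scale, as were 4 of 5 meningeal and all 3 haemoglobin genes tested. The sign-flip permutation test by animal did not call the microglial gene Tmem119 (adjusted p 0.131) or the meningeal gene Col1a1 (adjusted p 0.0559), and the dexamethasone libraries did not call the haemoglobin gene Hba-a2 (adjusted p 0.141 by edgeR). None of 6 endothelial genes passed by edgeR, with 0 at an unadjusted p under 0.05 and 0 called by DESeq2 or limma.

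Ventricle-lining cells were present unevenly. The summed level of 7 ependymal genes ran from 50.6 to 226 CPM in PVN around a median of 81.0 CPM, and from 28.8 to 330 CPM around 66.8 CPM elsewhere. Foxj1 and Rarres2 were higher by 0.57 and 1.05, but the sign-flip permutation test by animal and the dexamethasone libraries did not call Foxj1 (adjusted p 0.652 and, by edgeR, 0.266). Pltp did not pass, and Ccdc153 had counts in 9 of 14 PVN libraries. Of 4 choroid plexus genes tested, Prlr and Otx2 were enriched by 1.81 and 1.72 and Ttr and Kl were depleted. dDG had more Otx2 than PVN (pairwise log2 difference -1.07, adjusted p 0.0316 by edgeR). Ttr ranged from 14.6 to 66.1 CPM with a log2 difference of -2.24 (SE 0.606, adjusted p 0.00144 by edgeR), Kl had -2.31, and the defining genes Folr1 and Kcnj13 had 4 counts each. The part of ventricle-lining cells in the other differences was not tested.

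Hormone genes and several thalamic genes varied most between punches, while the medians of the wider hypothalamic and imprinted lists were closer to that of all genes. Among 7705 genes with a PVN median of at least 20 CPM, the median SD of log2(CPM + 1) over the 14 libraries was 0.281. The same measure in the other regions ran from 0.284 in PFC to 0.352 in vDG. An SD over 1 was found for 17 genes in PVN (0.221%), against 1 gene in PFC and 73 in dDG. With log2(CPM + 5) the PVN count was 10. Among genes of at least 20 CPM, the median SD was 1.06 for the peptides of the nucleus, 1.23 for lateral hypothalamic genes and 0.667 for thalamic genes. It was 0.312 for wider hypothalamic, 0.329 for imprinted, 0.285 for oligodendrocyte and 0.177 for pan-neuronal genes. Single members of the wider hypothalamic and imprinted lists varied more, with an SD of 0.99 for Asb4, 0.91 for Six3, 0.60 for Dlk1, 0.58 for Gpx3 and 0.52 for Magel2, each above the 95th percentile of all such genes in PVN (0.509).

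Hcrt had the largest SD of all, 2.88, followed by Oxt (2.39), Avp (2.14) and Rgs16 (1.64). Sampling of counts would give SDs of 0.066 for Hcrt and 0.102 for Oxt at their mean PVN levels, 658 and 276 CPM. These means lie above the medians, and the SD from sampling is larger at lower counts. Oxt was 1481 CPM in replicate 10, 724 in replicate 5, 516 in replicate 4 and 350 in replicate 12. It was 201, 145, 137, 103 and 96.4 CPM in replicates 13, 9, 3, 11 and 1. The low punches were replicates 7, 6 and 15, with 50.4, 30.6 and 22.9 CPM, and replicates 14 and 8, with 5.10 and 5.04 CPM, of which the last 2 values rest on 4 and 5 counts. The punches thus ran from rich in Oxt to levels also found in other regions. Tcf7l2 was lowest in replicates 9, 5 and 1, at 117.1, 250.5 and 281 CPM, and these 3 punches also had the least Shox2, at 13.2, 34.9 and 40.9 CPM. In the other 11 punches Tcf7l2 ran from 384 to 691 CPM. Mbd1, a methyl-CpG binding gene, had the next largest SD (1.33), and its replicate 12 was at 0 while the other 13 had 12.7 to 36.6 CPM. Rgs16 likewise was at 0 in replicate 9, and in replicate 1 it was 8.77 CPM. The remaining genes among the 10 most variable were Nts (1.29), Pvalb (1.28), Pmch (1.23), Ptpn3 (1.17) and Plekhg1 (1.17).

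**Figure D3:**
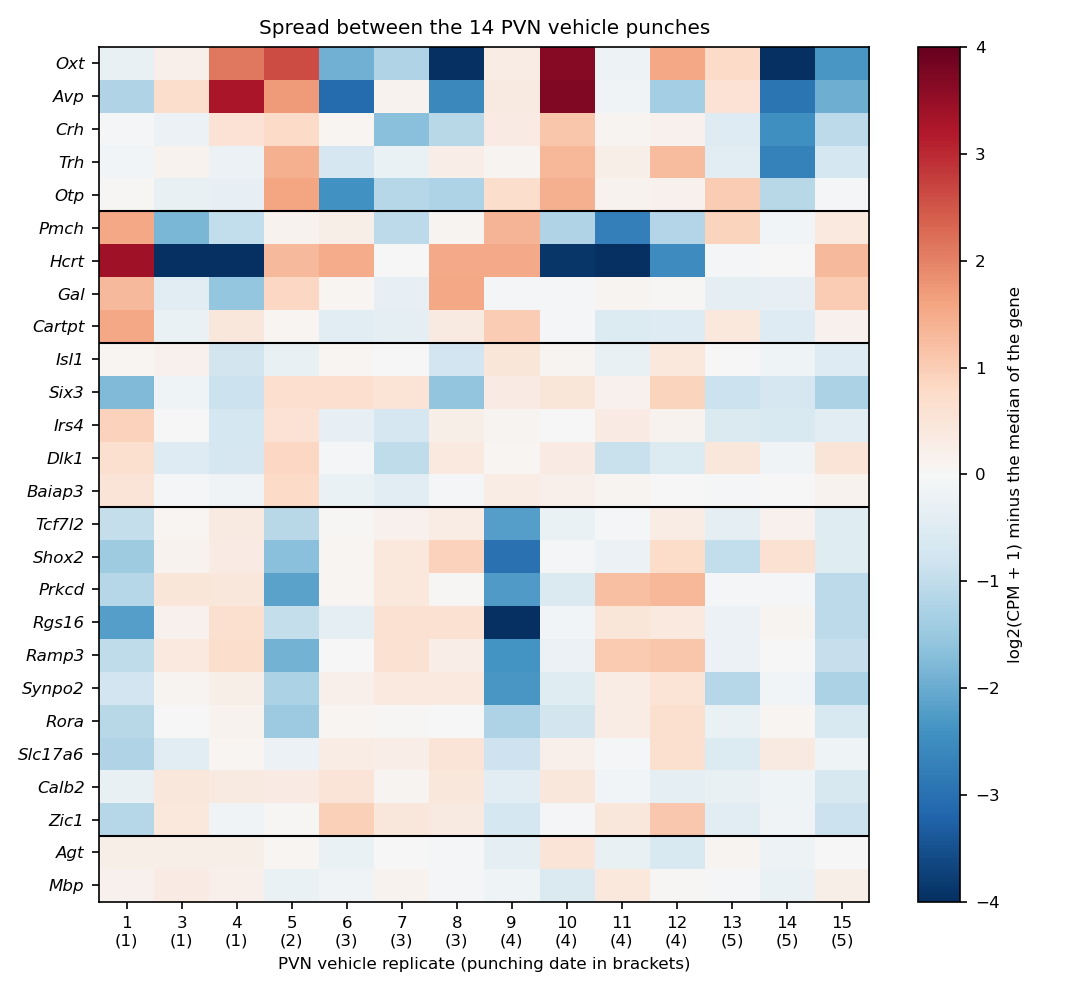
Log2(CPM + 1) of listed genes in each of the 14 PVN vehicle punches, minus the gene's median, with punching date in brackets under the replicate number. Red is above and blue below the median. Oxt and Avp run high together in replicates 4, 5 and 10, Hcrt is low in replicates 3, 4, 10, 11 and 12, and Tcf7l2, Shox2 and Prkcd are low in replicates 1, 5 and 9.

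Gene pairs were compared across the 14 punches by permutation (100000 resamples, two-sided), with adjusted p-values over the 36 pairs among Oxt, Avp, Crh, Trh, Otp, Tcf7l2, Prkcd, Mbp and Ttr, and 7 pairs passed. The libraries differ in depth, plate and punching date, and values of both genes of a pair come from the same library. Oxt and Avp varied together, with Pearson's r 0.86 (permutation p 0.00015, adjusted p 0.0027) and Spearman's rho 0.85 (permutation p 0.00026). Without the 2 libraries furthest from the median of Oxt, r was 0.82, and after subtraction of punching-date means it was 0.78 (adjusted permutation p 0.0191). Oxt and Crh had r 0.84 and rho 0.85 (adjusted permutation p 0.00312 and 0.0063), with r 0.76 without 2 libraries. Oxt and Trh had r 0.72 and rho 0.58 (adjusted permutation p 0.0179), and Oxt and Otp r 0.74 and rho 0.77 (adjusted permutation p 0.0179). Crh and Trh had r 0.77 and rho 0.64, and Avp and Otp r 0.67 and rho 0.62 (adjusted permutation p of r 0.0108 and 0.0427). By Spearman's rho the pairs Oxt with Trh, Crh with Trh and Avp with Otp did not pass (adjusted permutation p 0.111, 0.0838 and 0.0838). Without the 2 libraries furthest from the median of the first gene, 5 of the 7 pairs still passed, while Crh with Trh (r 0.59, adjusted permutation p 0.232) and Oxt with Otp (r 0.70, adjusted permutation p 0.0571) did not. Within punching dates the r of Oxt with Crh, Trh and Otp was 0.66, 0.56 and 0.59, that of Crh with Trh 0.48 and that of Avp with Otp 0.65, and these 5 no longer passed. Dates 1, 3, 4 and 5 held 3, 3, 4 and 3 PVN punches and date 2 held 1, too few for a value of r within each date. After subtraction of date means, values were permuted over all 14 punches and not within dates. The only punch of date 2 equals its own mean and adds nothing to r. The p-values take no account of the means subtracted and may be too small.

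Among thalamic genes, Tcf7l2 varied with Prkcd and with Shox2. Tcf7l2 and Prkcd had r 0.87 and rho 0.77 (adjusted permutation p 0.0018 and 0.018), with r 0.74 without 2 libraries and 0.91 within dates. Among 30 pairs with Pmch, Hcrt or Shox2, added after the values were seen and adjusted over all 66 pairs, Tcf7l2 and Shox2 had r 0.97 and rho 0.94 (adjusted permutation p 0.00066 for both). Prkcd and Shox2 had r 0.81 (adjusted permutation p 0.00407), but the pair did not pass by Spearman's rho (0.67, adjusted permutation p 0.0766) or without 2 libraries (r 0.56, adjusted permutation p 0.251). Between Oxt, Avp, Crh, Trh or Otp and a thalamic gene no relation passed: Oxt and Tcf7l2 had r -0.24 (adjusted permutation p 0.669) and 0.13 within dates. Prkcd and Pmch had r -0.72 and rho -0.73 (adjusted permutation p 0.0244), and r was -0.74 without 2 libraries, where it did not pass (adjusted permutation p 0.0503), and -0.82 within dates. In the dexamethasone punches the same pair had r 0.23, which did not pass (adjusted permutation p 0.561). Tcf7l2 with Pmch and Pmch with Shox2 did not pass over the 14 punches (r -0.61 and -0.58, adjusted permutation p 0.091 and 0.126) but passed after subtraction of date means (r -0.82 and -0.77, adjusted permutation p 0.00647 and 0.0109), and neither passed in the dexamethasone punches (r -0.13 and -0.09). Because Hcrt fell into separate clusters, its relation to Pmch was taken over the 9 punches above 100 CPM only, where r was 0.64 (exact permutation p 0.0682, adjusted over 13 such pairs 0.142) and did not pass.

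**Figure D4:**
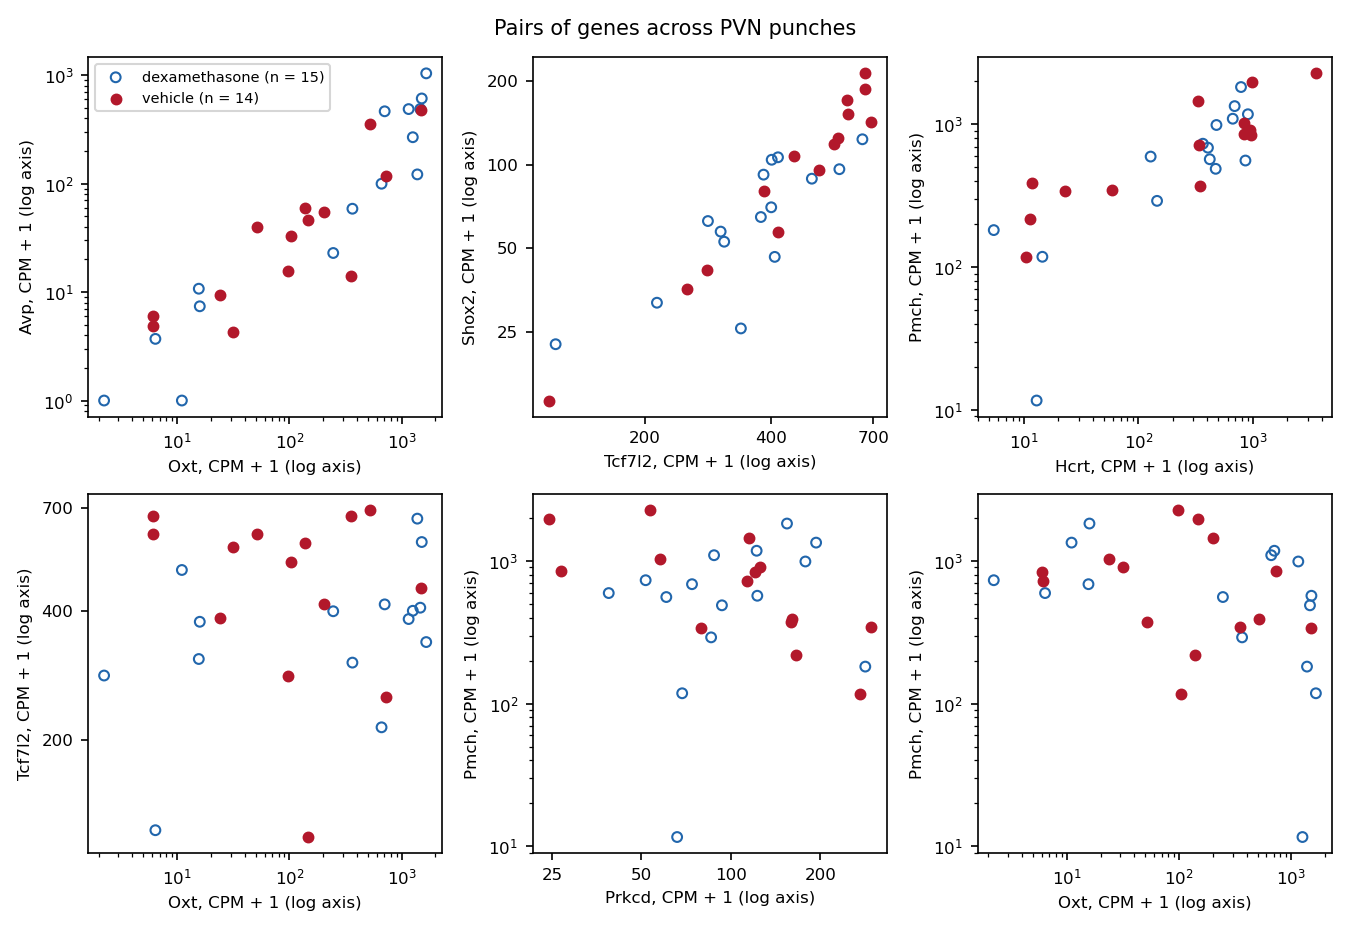
Pairs of genes across PVN punches, as CPM + 1 on log axes, with 14 vehicle punches filled and 15 dexamethasone punches open. Oxt with Avp and Tcf7l2 with Shox2 lie along a line in both arms (vehicle r 0.86 and 0.97), and Hcrt splits into low and high punches.

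The genes most like Oxt across the 14 punches, by Pearson's r over 7764 genes, were Avp (0.86), Tns1 (0.80), Tapbp (0.79), Ehd4 (0.78) and Tmem176b (0.77). Those most like Tcf7l2 were Shox2 (0.97), Rgs16 (0.94), Wnt3 (0.94), Cpne9 (0.93) and Cck (0.93). These r values are a description, since each list was picked as the top of all genes. The vehicle contrast differed among them: Ehd4 was higher in PVN by 0.79 and Wnt3 and Cpne9 were enriched by 1.74 and 1.39, whereas Cck was lower by -0.79 and Tns1 and Tapbp did not pass.

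The same contrast in the dexamethasone libraries, from other animals, gave 283 enriched genes (2.69% of 10531 tested) and 373 depleted ones (3.54%). Enriched in both arms were 240 genes, 78.4% of the vehicle and 84.8% of the dexamethasone list, and depleted in both were 304 genes, 76.0% and 81.5%. Of the vehicle-enriched genes, 291 were tested again, and all 291 were higher in PVN and passed. Of 390 vehicle-depleted genes tested again, all had the same sign and 387 passed. Pmch, Hcrt and Tcf7l2 had log2 differences of 6.16, 6.05 and 2.57 there. Oxt and Avp were further from the other regions, at 7.55 and 7.01, and Oxt ranged from 1.24 to 1653 CPM with a median of 661 CPM. Those Oxt values also split, 5 punches having 1.24 to 14.9 CPM and 10 having 245 to 1653 CPM, and over these 10 Oxt and Avp had r 0.85 (permutation p 0.00236, adjusted 0.0307). Over the same 10, Oxt with Crh, Trh and Otp had r 0.69, 0.49 and 0.41 and did not pass (adjusted permutation p 0.119, 0.222 and 0.308). Tcf7l2 and Shox2 had r 0.80 over the 15 (adjusted permutation p 0.00165). Whether the levels differed between vehicle and dexamethasone punches was not tested here.

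**Figure D5:**
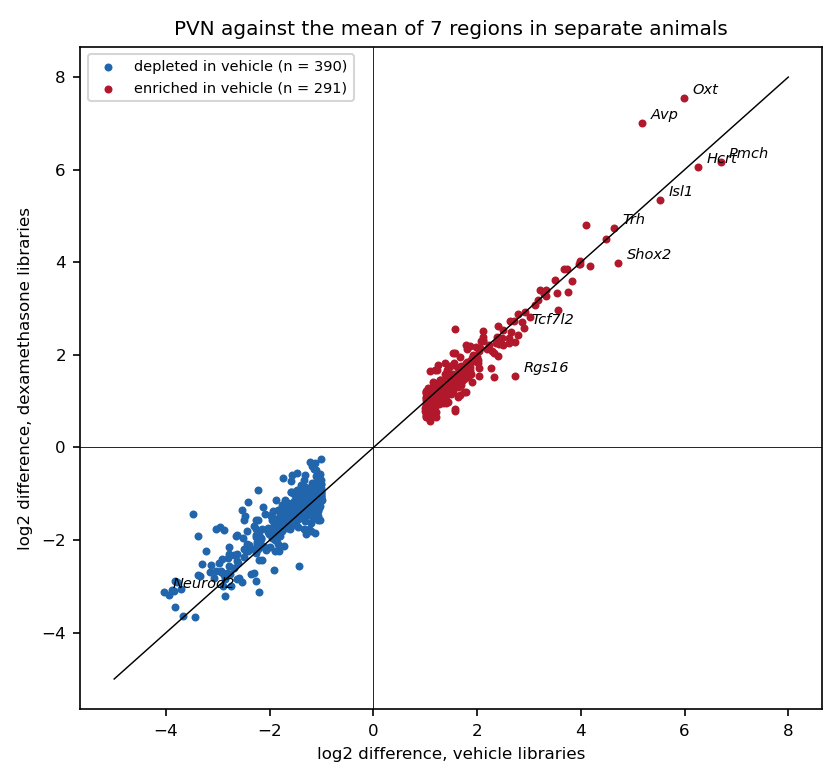
Log2 difference of PVN from the mean of 7 regions in vehicle libraries (x axis) and in dexamethasone libraries (y axis), for 291 vehicle-enriched genes and 390 vehicle-depleted genes. The line marks equal values. Every enriched gene lies above 0 on both axes and every depleted gene below 0 on both.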

How the data were processed

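Messenger RNA of punched mouse brain regions was measured as 3′ end libraries with molecular identifiers. The authors deposited raw counts per gene for 27998 genes in 235 libraries. The submitters' processing notes name FastQC 0.11.4, cutadapt, UMI-tools 0.5.4, STAR 2.6.0a, featureCounts 1.6.4 and the build mm10. The use of strand and the annotation are not given in the sources used here. Other deposited tables, on a log2 scale, were not used.

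Libraries were grouped by title. The label number after CNTRL gives the animal, and labels of the same number carry the same animal ID, so replicate numbers pair libraries of 1 animal. The model in edgeR 4.0.16 (R 4.3.3) had a term for each region and each animal, TMM scaling and filterByExpr by region, with 96 residual degrees of freedom. Exact sign-flip tests over 14 animals, used 16384 flips, with a smallest p of 0.000122. Per-library values used log2(CPM + 1). Correlations and levels used Python 3.11.15, numpy 2.4.6, pandas 2.3.3 and scipy 1.17.1. Sim1 was to be among the genes correlated but was too low for the fit. The fit was also run on simulated data, and the outcome is not reported here. Intervals and floors cover counting error only. Alternatives used DESeq2 1.42.0 and limma 3.58.1. No pair of PVN libraries was within sampling noise (smallest chi-square per degree of freedom 1.42).

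Genes were named as list members, the 15 with the largest and 10 with the smallest differences, the 10 with the largest SD (PVN median of at least 20 CPM), the 5 most like Oxt and Tcf7l2, and the 5 with the largest smallest pairwise difference. The lists and the group of libraries were chosen with earlier results of these data known. A few genes that these rules select are not reported here and are not drawn.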

Additional observations from a re-analysis of the deposited data

How the results depend on the processing

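Without the animal block, the counts of genes higher, lower, enriched and depleted were 2083, 2181, 302 and 406, and 234 genes were higher than each region. Leaving it out moved no count by over 1.5 times. Leaving out each PVN library in turn gave 1939 to 2049 higher, 2035 to 2226 lower, 291 to 310 enriched and 392 to 414 depleted genes. Without the filter on low counts, 966 genes were enriched and 643 depleted, with more genes tested. A log2 difference of at least 1 from all 7 regions left 42 genes. With log2(CPM + 5), 10 genes had an SD over 1. Of 36 gene pairs, 7 passed. After subtraction of punching-date means 3 pairs passed, of which Oxt with Avp and Tcf7l2 with Prkcd were among the 7 and Trh with Otp was not. Over all 15 dexamethasone punches, an alternative added after seeing the data, 11 pairs passed, 4 of them with Oxt, which fell into separate clusters there. Over the 10 punches high in Oxt, 1 of these 4 passed (Oxt with Avp), and the pairs without Oxt were not computed over those 10. Of the 30 added pairs 4 passed, and 9 did after subtraction of punching-date means; the 5 gained were negative relations of Pmch or Hcrt to thalamic genes, 3 of them with Hcrt, which fell into separate clusters. The causes were not tested. For Prkcd and Pmch, r was 0.23 in the dexamethasone punches and did not pass (adjusted permutation p 0.561). For 54 named genes, 1425 of 1445 alternative values kept direction and call, 18 lost the call, 2 gained it and 0 reversed. The losses were 15 for Tmem176b and 1 each for Cck, Crh and Ttr. Depth limited Sim1, Gbx2 and most receptors.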

Other observations

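Of 6 genes of striatal neurons tested, 1 was higher and 2 lower by edgeR, of which the sign-flip permutation test by animal did not call Drd1 (adjusted p 0.0562). Tac1, which encodes substance P and is also made in the hypothalamus, ranged from 44.5 to 134 CPM and was enriched by 1.15 on the log2 scale (SE 0.183, adjusted p 6.57e-08 by edgeR). AMY had more Tac1 than PVN, with means of 188 and 86.7 CPM (pairwise log2 difference -1.14, adjusted p 5.17e-05 by edgeR). Ppp1r1b, a phosphatase inhibitor of striatal neurons, was depleted (-1.43), and Drd2 had 2 counts in the 14 libraries. Cbln1, a synaptic organiser known from cerebellar granule cells and also made in the thalamus, ranged from 35.1 to 136 CPM and was enriched by 3.55 (SE 0.290, adjusted p 1.51e-20 by edgeR), while Gabra6 had 4 counts in PVN.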
